A study of Rattus norvegicus with 20 samples.

Results

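The microRNAs miR-204 and miR-211 share 1 seed, the short stretch near the 5′ end through which a microRNA (miRNA) finds its messenger RNAs. They were followed in the soleus muscle and in the lumbar dorsal root ganglia (DRGs, the clusters of sensory nerve cell bodies beside the spinal cord) of adult male Sprague-Dawley rats with sciatic nerve injury. The members were the 2 rows named rno-miR-204 and rno-miR-211 among the 350 rat miRNAs of a single-colour Agilent array. Each tissue had 10 arrays, which makes 20 in all. In the denervation group (3 arrays) the sciatic nerve was divided so that it could not grow back and the rats were kept for 6 months. In the entrapment group (3 arrays) a silastic tube was left around the nerve for 6 months. In the decompression group (3 arrays) the tube was taken off after 6 months and the rats were kept for 3 months more. The sham group had 1 array per tissue, and its labels give no time after surgery. Decompression rats were kept longer than those of the other injuries, so decompression and added age cannot be told apart. The study's methods speak of tissue of 3 rats in each group, sham included. How the single sham array relates to those rats, as 1 animal or a pool, is not given in the sources used here, so p-values measure only the spread between these samples.

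A miRNA guides a silencing complex to matching sites, mostly in the 3′ untranslated regions of messenger RNAs, and lowers the protein made from them. Both genes lie in introns of genes for channels of the melastatin TRP family and can be made together with them. Mir204 lies in Trpm3, whose channel responds to heat and to neurosteroids in sensory neurons, and Mir211 lies in Trpm1, whose channel is known from melanocytes and from bipolar cells of the retina. Outside muscle and ganglia, miR-204 is best known from the retinal pigment epithelium and miR-211 from pigment cells, and the pair is known to repress the bone transcription factor Runx2.

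The mature sequences show how close the pair is. They are printed 5′ to 3′ from RefSeq on the rat build GRCr8, with the seed (bases 2 to 8) in capitals. The array's names are the older names of the 5p strands.

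rno-miR-204-5p: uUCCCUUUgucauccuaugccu
rno-miR-211-5p: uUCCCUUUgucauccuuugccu

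These strands match at 21 of 22 bases and differ by the substitution A17U, counted from the 5′ end with the base of miR-204 first. Of 693 mature rat miRNAs in the reference, 2 carry this seed, and they are this pair. The next closest to miR-204-5p over its whole length, rno-miR-217-3p, differs from it at 9 bases. Probe sequences were not used here. How far RNA of one member is read by the probe of the other is therefore uncertain.

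The opposite strands of the hairpins have unlike seeds and are shown because a probe for one of them, called miR-204*, is also on the array.

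rno-miR-204-3p: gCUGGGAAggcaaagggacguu
rno-miR-211-3p: gGCAAGGAcagcaaaggggg

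The hairpins follow with both mature strands in capitals. Mir204 is 110 bases long, on the + strand at chr1:229743461-229743570, within the span of Trpm3. Mir211 is 106 bases long, on the + strand at chr1:127189328-127189433, within the span of Trpm1.

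Mir204: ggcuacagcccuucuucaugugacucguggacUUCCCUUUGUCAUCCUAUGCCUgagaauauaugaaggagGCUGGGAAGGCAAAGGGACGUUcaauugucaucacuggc
Mir211: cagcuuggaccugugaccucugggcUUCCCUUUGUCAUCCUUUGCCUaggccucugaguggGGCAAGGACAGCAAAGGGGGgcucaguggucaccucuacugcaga

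Signals are the scanner software's total signal per miRNA, in arbitrary units. A scaled signal is that value divided by the array's 75th percentile and returned to the level of a typical array of the tissue. The 75th percentile ranged 6.20-fold over the soleus arrays and 1.62-fold over the DRG arrays. The labelled tissues were checked with marker miRNAs. The summed signal of 5 muscle miRNAs was 47965 to 299142 in soleus and 261 to 467 in DRGs on one scale. That of 11 neuronal miRNAs was 5618 to 7577 in DRGs and 116 to 273 in soleus, although miR-132 was not detected in DRGs. The muscle miRNA miR-499 was not detected on the soleus sham array but was detected in each soleus injury group. The summed scaled signal of 2 endothelial miRNAs was 382 on that sham array. It was 1171 to 1505 in soleus denervation, 1101 to 1748 in entrapment and 1271 to 1802 in decompression. Some values and names disagreed between the scanner output and the authors' processed table. The processed table carries the DRG entrapment values under the names of the decompression arrays and the reverse. The groups below follow the scanner output as labelled, and values with the names exchanged are given for the pair where they change a call. The soleus sham signal of miR-204 also differed between these sources, as described with that result.

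In the DRGs miR-204 gave a strong signal, and no difference between groups passed the test. Its scaled signal was 1131 on the sham array, 1239, 1114 and 1436 after denervation, 1016, 1166 and 1287 after entrapment, and 1227, 1116 and 791 after decompression. The 3 injury groups overlapped each other and each spanned the sham value, and miR-204 was detected on 10 of 10 arrays.

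Against sham, the log2 difference of miR-204 in DRGs was 0.15 after denervation (SE 0.25, limma adjusted p = 0.805). It was 0.03 in the entrapment group (adjusted p = 0.963) and -0.14 in the decompression group (adjusted p = 0.684). The 95% intervals allow a fold of 0.743 to 1.66 for denervation, 0.681 to 1.52 for entrapment and 0.607 to 1.36 for decompression. Between the injuries the log2 differences were -0.13 for entrapment against denervation (adjusted p = 0.617), -0.29 for decompression against denervation (adjusted p = 0.228) and -0.16 for decompression against entrapment (adjusted p = 1). The tests take the spread of the lone sham array to equal that of the injury groups. These differences depended on the scaling. When arrays were scaled to their median, the median of all 219 tested miRNAs moved to 0.73 in entrapment against sham, and miR-204 came to 0.87 there (adjusted p = 0.0187) and to 0.71 after decompression (adjusted p = 0.0412). Relative to the median of all tested miRNAs, miR-204 stood at 0.14 after entrapment and -0.01 after decompression under both scalings. That sameness was fixed in advance, since each scaling shifts all log2 values of an array alike.

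By the scanner labels, the level of miR-211 in DRGs was lower after decompression than in sham, but was not told apart from entrapment. Its scaled signal was 27.6 on the sham array, 25.0, 20.1 and 26.0 after denervation, 11.4, 4.92 and 17.2 after entrapment, and 6.21, 4.90 and 3.52 after decompression. The sham and denervation arrays were the high ones, and no entrapment or decompression array reached them. It was detected on the sham array, on 3 of 3 denervation arrays, on 1 of 3 entrapment arrays (replicate 3) and on 0 of 3 decompression arrays. Unscaled, the sham signal was 31.9 with a scanner error of 2.76, and the decompression signals were 5.45, 4.82 and 3.08. Those of the decompression group were not well above background. Folds against it are written as "at least": the dim group is taken at its own signal or at the lowest detected signal of the array, whichever is higher. They carry the error of the fit, given as an interval.

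Decompression stood at least 5.81-fold below sham (log2 difference -2.54, 95% interval -3.90 to -1.18, limma adjusted p = 0.0195). On 3 of 3 arrays it was at least 2-fold lower, which was the case for 13.7% of tested miRNAs. In this comparison 16.4% of all tested miRNAs were called lower, and 3 of the 219 had a more negative difference than miR-211. Against denervation, decompression was at least 4.95-fold lower (log2 difference -2.31, 95% interval -3.27 to -1.34, adjusted p = 0.00295), where 27.9% were called lower. The detection filter was passed through 1 sham, 3 denervation and 1 entrapment array and no decompression array. Tests against decompression are therefore not free of that selection. Without the filter the limma adjusted p was 0.0472 against sham and 0.0144 against denervation. Both calls held when any 1 injury array was left out, but the sizes depended on the scaling. Decompression stood at -1.69 from sham and -1.66 from denervation with median scaling, and at -1.56 and -1.44 with quantile normalization, with all 4 past the threshold (adjusted p from 0.00163 to 0.0334). Relative to the median of all tested miRNAs, miR-211 stood at -2.41 from sham and -2.16 from denervation under both percentile and median scaling. That sameness was fixed in advance, since both scalings shift all log2 values of an array alike. With quantile normalization, which does not, miR-211 stood at -1.61 and -1.47 from that median. With both sets of array names exchanged, as in the processed table, the decompression difference from sham was -1.49 (adjusted p = 0.109) and the entrapment difference was -2.54 (adjusted p = 0.0195). Decompression against denervation was then -1.25 (adjusted p = 0.0446).

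Entrapment gave a middle value for miR-211. Against sham the log2 difference was -1.49 (limma adjusted p = 0.109) in a comparison where 17.4% of tested miRNAs were called lower. It was at least 2-fold lower on 2 of 3 arrays, and 11.0% of tested miRNAs were so on all 3. Without entrapment replicate 3 it was -1.88 (adjusted p = 0.0299). Against denervation it was -1.25 (SE 0.42, adjusted p = 0.0446), where 32.9% were called lower, and this call was lost in 8 of 9 fits that left out 1 array (adjusted p up to 0.121). Denervation differed from sham by a mean of -0.23 (SE 0.59, adjusted p = 0.890), and 50 of the 219 tested miRNAs had a more negative difference. In that comparison 0.457% of tested miRNAs were called, all of them higher and 0.0% lower, while 15.5% had an unadjusted p under 0.05.

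Decompression and entrapment were not told apart for miR-211. The log2 difference was -1.05 (limma adjusted p = 0.920, unadjusted p = 0.0357), and the groups overlapped. By the scanner labels miR-211 was detected on 0 of 3 decompression and 1 of 3 entrapment arrays. With the array names exchanged the log2 difference turns to 1.05, and these detection counts are exchanged too. In this comparison limma called 0 miRNAs (0.0%) and 9 (4.11%) had an unadjusted p under 0.05.

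**Figure D1:**
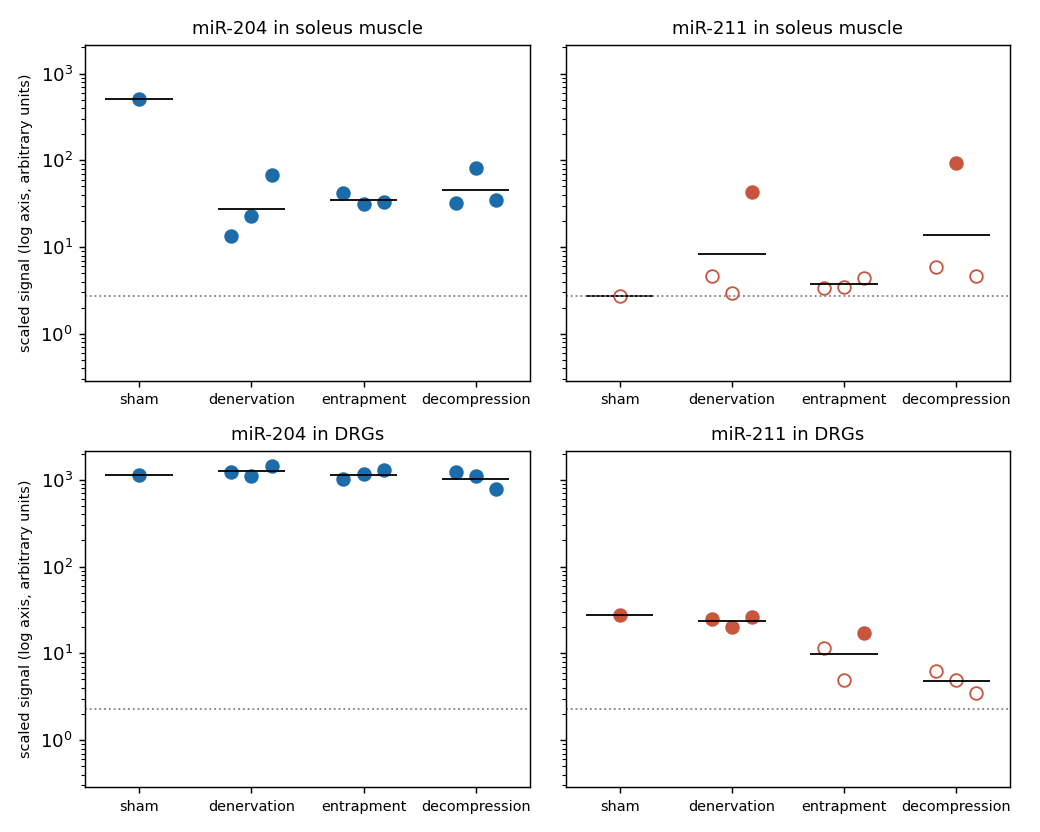
Scaled signal (arbitrary units, log axis) of miR-204 and miR-211 on each array, by tissue and group. Filled points are detected and open points are not, black bars are means of log2 values, and the dotted line is the floor below which values were set to it. In DRGs the miR-204 points lie between 791 and 1436, while the decompression points of miR-211 lie between 3.52 and 6.21 and are all open.

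Other measures moved with the miR-211 difference in DRGs. All 6 entrapment and decompression arrays (3.52 to 17.2) lay below all 4 sham and denervation arrays (20.1 to 27.6), as did 59 of the 219 tested miRNAs (26.9%). Of the 45 control features, 24 were apart in the same split of arrays in either direction (53.3%), 15 of them lower (33.3%), on the unscaled signal. The arrays' 75th percentile was 99.7 for sham, 97.5 to 117 for denervation, 72.0 to 88.1 for entrapment and 75.5 to 85.0 for decompression. Between 183 and 200 miRNAs were detected on entrapment and decompression arrays, against 213 to 233 on the others. Injury group and array handling cannot be told apart here. Loss of detection as complete as that of miR-211, on all 4 sham and denervation arrays and on no decompression array, was seen for 13 of 348 miRNAs (3.74%). In a whole ganglion, fewer cells of a type and less RNA per cell cannot be told apart. The summed scaled signal of the neuronal miRNAs was 6059 in sham, 5224 to 5491 in denervation, 5493 to 6275 in entrapment and 5663 to 6215 in decompression. That of 3 miRNAs of Schwann cells and glia was 10170 in sham, 13610 to 15535 in denervation, 12704 to 15232 in entrapment and 12457 to 13946 in decompression. Over 4 leukocyte miRNAs the sum was 899 in sham, 680 to 1109 in denervation, 483 to 648 in entrapment and 729 to 963 in decompression. Over 2 red blood cell miRNAs it was 3001 in sham, 686 to 1548 in denervation, 873 to 2871 in entrapment and 1411 to 4244 in decompression. Over 2 endothelial miRNAs it was 620 in sham, 553 to 678 in denervation, 540 to 594 in entrapment and 494 to 630 in decompression. Of the endothelial miRNAs, miR-126* was lower than sham after entrapment (log2 difference -1.69, limma adjusted p = 4.03e-05) and decompression (-1.68, adjusted p = 4.29e-05). In these comparisons 17.4% and 16.4% of tested miRNAs were called lower, and miR-126 was not called. The part of these cell types in the miR-211 difference was not tested.

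**Figure D2:**
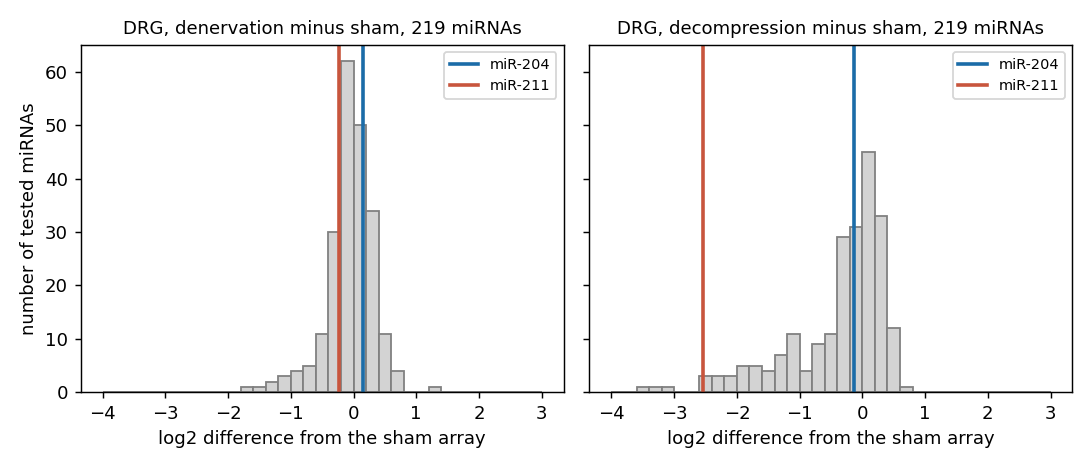
Histograms of the log2 difference from the sham array in DRGs for all 219 tested miRNAs, denervation on the left and decompression on the right, with vertical lines for miR-204 and miR-211. After decompression miR-211 sits in the lower tail at -2.54, and miR-204 sits at -0.14 near the middle.

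The members of the pair moved by different amounts on the same DRG arrays. The log2 change of miR-211 from sham minus that of miR-204 was -0.28, -0.44 and -0.43 on the denervation arrays, -1.13, -2.53 and -0.87 on the entrapment arrays, and -2.27, -2.48 and -2.46 on the decompression arrays. It was negative on 9 of 9 arrays, which share 1 sham array. How many other tested miRNAs also changed by less than miR-204, or fell further, on each of these arrays was not counted. The miR-211 values behind the decompression arrays, and behind entrapment replicates 1 and 2, were not well above background.

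**Figure D3:**
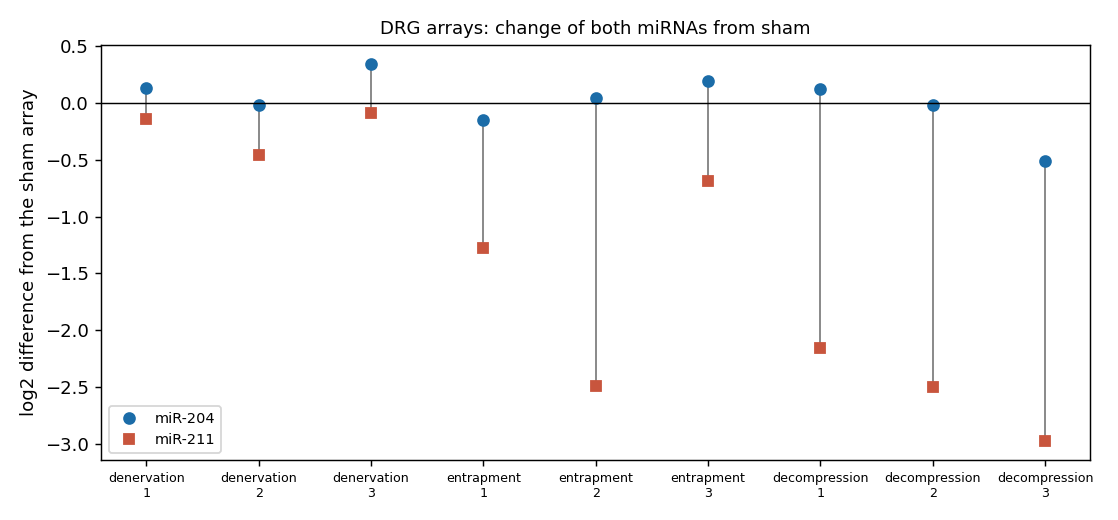
Log2 difference from the sham array of miR-204 (circles) and miR-211 (squares) on each of the 9 DRG injury arrays, with a line joining both miRNAs of an array. The miR-211 square lies below the miR-204 circle on 9 of 9 arrays, by -2.27, -2.48 and -2.46 on the decompression arrays.

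In soleus the miR-204 signal was lower than sham on all 9 injury arrays. The pair was chosen by signals of these arrays, among them this low soleus signal and the difference between tissues, so the soleus values are a description without a test. The scaled signal of miR-204 was 504 on the sham array, 13.3, 22.6 and 68.2 after denervation, 42.0, 31.4 and 32.7 after entrapment, and 32.1, 82.1 and 35.1 after decompression. The sham array stood apart and the injury groups overlapped. It was detected on 10 of 10 arrays.

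The mean log2 difference from sham was -4.20 ± 1.20 (SD, n = 3) after denervation, -3.85 ± 0.23 after entrapment and -3.48 ± 0.75 after decompression. These are 18.4-, 14.4- and 11.1-fold lower levels, and without denervation replicate 3 the denervation difference was -4.86. In each group 3 of 3 arrays were at least 2-fold below sham. The same was true of 18.5% of the 173 tested miRNAs after denervation, 27.2% after entrapment and 27.2% after decompression. After denervation no tested miRNA had a more negative difference, while 8 did after entrapment and 15 after decompression. Fold sizes depended on the scaling: on unscaled signals the differences were -2.72, -2.22 and -2.13, still at least 2-fold on 3 of 3 arrays in each group. The median of all tested miRNAs was 1.32, 1.04 and 1.02 on unscaled signals. Relative to the median, miR-204 stood at -4.04, -3.26 and -3.15 unscaled, against -4.13, -3.47 and -3.19 with percentile scaling. Such closeness was largely fixed in advance, since scaling shifts all log2 values of an array alike apart from the floor.

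Each of these soleus differences rests on 1 sham signal, which stood apart in its record. The scanner output gives 188.866 for it, while the processed table times that array's constant of 100 gives 118.658, so the scanner value is 1.59-fold higher. No other soleus array differed for miR-204. This signal is 1 of 4 among 7000 rat miRNA signals written with more than 6 significant digits, and the other 3 belong to miR-139-3p. Its scanner error was 17.1% of the signal, against 7.13% to 13.1% for 16 other detected miRNAs of similar signal on that array. With the processed value in its place, the log2 differences were -3.53, -3.17 and -2.81, and 3 of 3 arrays in each group remained at least 2-fold lower. The cause was not tested.

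**Figure D4:**
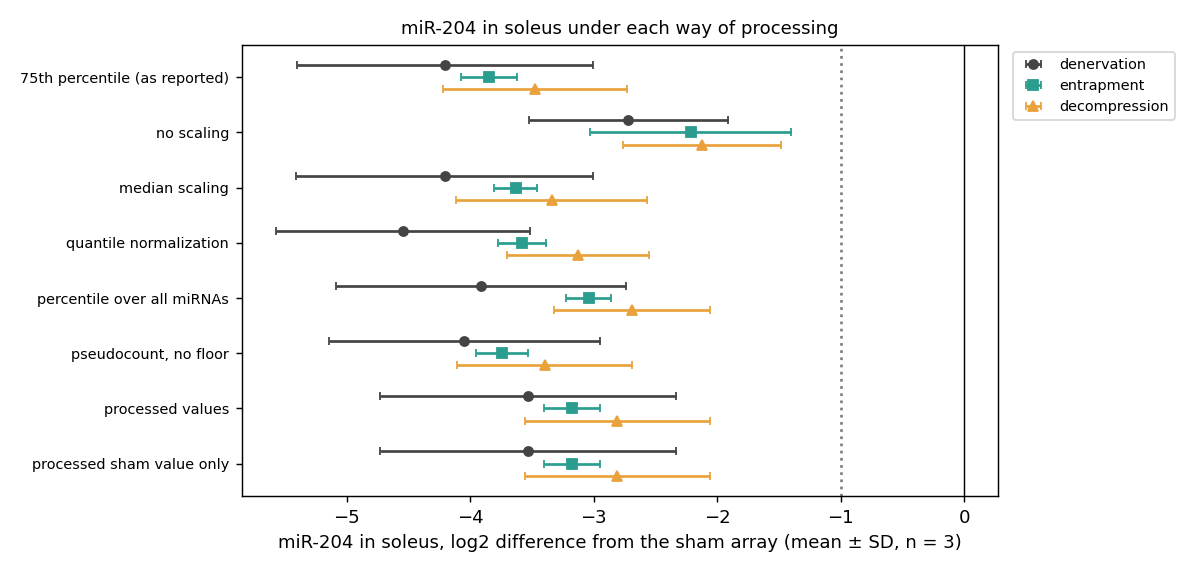
Log2 difference of miR-204 in soleus from the sham array (mean ± SD, n = 3 arrays) for denervation, entrapment and decompression under 8 ways of processing. The dotted line marks a 2-fold lower level. All means lie beyond it, from -2.13 without scaling to the lower values with quantile normalization.

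Between the injury groups, which overlapped, the soleus differences of miR-204 were small beside those from sham. Entrapment minus denervation was 0.36 on the log2 scale, decompression minus denervation 0.73, and decompression minus entrapment 0.37. The within-group SD of miR-204 was 0.83, above the median of 0.45 over the tested miRNAs, and 29 of 173 had a larger one. In DRGs its SD was 0.24, against a median of 0.15.

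For miR-211 soleus lay near the limit of detection, with detection on 2 of 10 arrays. Denervation replicate 3 gave a signal of 16.3 with an error of 2.22, and decompression replicate 2 gave 81.6 with an error of 6.19. The other 8 signals lay between -0.73 and 6.89 and were not well above background. A detection on denervation replicate 3 alone within its group was seen for 9 of 348 miRNAs (2.59%), and on decompression replicate 2 alone for 12 (3.45%). On the scaled signal miR-204 was also highest within its group on those arrays, at 68.2 and 82.1, but unscaled it was higher on denervation replicate 2 (52.4) than on replicate 3 (25.8). With detection on fewer than 3 arrays, miR-211 in soleus was not fitted.

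Set on one scale across tissues, miR-204 was higher in DRGs than in soleus in each group. The tissue comparison was part of the choice of this pair and is given without a test. All 10 DRG arrays (936 to 1561) lay above all 10 soleus arrays (11.3 to 427), as they did for 37.0% of 230 miRNAs, and 12 of these had a larger mean difference. The difference was 2.95-fold in sham, 60.2-fold in denervation, 49.3-fold in entrapment and 33.2-fold in decompression. These folds include a shift shared by many miRNAs on this scale. Averaged over all arrays, the median log2 difference of the 230 miRNAs was 1.007, against 5.13 for miR-204. The median for the sham arrays alone was not computed, so the sham fold cannot be read as an enrichment of miR-204 over other miRNAs. Without soleus denervation replicate 3 the denervation log2 difference rose from 5.91 to 6.56. With the processed sham value the sham log2 difference rose from 1.56 to 2.23. For miR-211 the sham level was at least 13.3-fold higher in DRGs than in soleus (a log2 difference of 3.73, or 2.71 with quantile normalization), but over all arrays the tissues overlapped, since soleus decompression replicate 2 (75.3) lay above the highest DRG array (30.8).

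The miRNAs most like each member were those with the highest Pearson correlation over the 10 arrays of a tissue, given as a description, since the arrays share scaling and injury groups. For miR-204 in soleus they were miR-130a (r = 0.94), let-7b (r = 0.91) and miR-329 (r = 0.85, rho = 0.50). For miR-204 in DRGs they were miR-379* (r = 0.71), miR-376c (r = 0.61) and miR-211 itself (r = 0.58, rho = 0.50). For miR-211 in DRGs they were miR-350 (r = 0.97), miR-346 (r = 0.94) and miR-338* (r = 0.93). Of these, miR-350 and miR-346 were detected on 4 arrays each, miR-376c and miR-211 on 5 DRG arrays each, and miR-329 on 7 soleus arrays. The correlations that involve them, all those of miR-211 included, rest partly on values near background.

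Other miRNAs of nervous tissue were set beside the pair in the DRGs, 18 on the array and 16 tested. Against sham, 0 were called by limma after denervation, with 7 of the 16 at an unadjusted p under 0.05, against 15.5% of all tested miRNAs. After entrapment 2 rose, miR-29a (log2 difference 0.72, adjusted p = 0.00336) and the glial miR-338 (0.52, adjusted p = 0.0290), where 2.28% of all tested miRNAs were called higher. In the same comparison, where 17.4% of all were called lower, 2 fell, miR-9, known from neural progenitors (-1.23, adjusted p = 0.000971), and miR-212, known as induced by neuronal activity (-1.43, adjusted p = 0.00184). After decompression, with 1.83% of all called higher and 16.4% lower, miR-29a rose (0.77, adjusted p = 0.00238), and miR-9 (-1.25, adjusted p = 0.000870) and miR-212 (-1.38, adjusted p = 0.00238) fell. Of the 16 tested, 2 thus fell and 1 rose after decompression, and the median of the list was 0.07 there against -0.13 for all tested miRNAs. The list as a whole did not share the fall of miR-211. Against denervation, 7 rose and 3 fell after entrapment, where 8.22% of all were called higher and 32.9% lower. In decompression against denervation 7 rose and 2 fell, where 8.68% were called higher and 27.9% lower. Between decompression and entrapment 0 of the 16 were called by limma, and 0 had an unadjusted p under 0.05. With the array names exchanged, the entrapment and decompression results of this list trade places, the rise of miR-338 against sham included.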

How the data were processed

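MicroRNA was measured on 20 single-colour arrays. The deposited scanner output (Agilent Feature Extraction 9.5.3) gives a background-corrected total signal intensity per miRNA with its error and a detection call. The authors' processed signal table holds most of these values divided by a constant per array, apart from single soleus values and the exchanged DRG names, and was used only as an alternative. Groups came from the labels. The members and lists were chosen with earlier results of these data known.

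Signals were divided by each array's 75th percentile, in soleus over the 108 miRNAs detected on all 10 arrays and in DRGs over all 348 with one name in every file. Values below the floor (2.72 in soleus, 2.28 in DRGs) were set to it before taking log2. Tissues were set side by side on a scale over the 102 miRNAs detected on all 20 arrays. Percentile scaling assumes that the upper part of the distribution is alike between arrays. miRNAs detected on at least 3 of 10 arrays were tested (173 in soleus, 219 in DRGs) with limma 3.58.1 (R 4.3.3), group only, two-sided, Benjamini-Hochberg over all tested at 0.05. Its 6 residual degrees of freedom come from the injury groups. The authors' 2-fold rule was also counted. The fit was tested on simulated data. The number of arrays limits the precision. Named miRNAs were the members, miR-329 and miR-139-3p, the 3 most correlated per member and tissue, called members of the nervous tissue list, and single members of the cell type lists. Lists for muscle, neurons, Schwann cells and glia, leukocytes, red blood cells and endothelium served as checks of cell types. Alternatives were other scalings and floors, the processed values, exchanged DRG names, no detection filter, a replicate block and leaving out each array.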

Additional observations from a re-analysis of the deposited data

How the results depend on the processing

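Of 409 recomputed values over 29 results, 354 kept their side of the threshold or moved less than the spread between replicates. Part of the 354 was fixed in advance. In soleus, leaving out an array of a group outside the comparison cannot change its log2 difference, and the replicate block did not change it either. Median scaling turned miR-204 in DRGs to 0.71 for decompression against sham (adjusted p = 0.0412) and 0.52 for entrapment against denervation (adjusted p = 0.0366), and gave 0.87 for entrapment against sham (adjusted p = 0.0187). Without scaling, miR-204 in decompression against denervation was -0.72 (adjusted p = 0.0218) and miR-211 in entrapment against sham -1.84 (adjusted p = 0.0450). With the processed values or with names exchanged, miR-211 came to -2.54 in entrapment (adjusted p = 0.0195) and -1.49 in decompression (adjusted p = 0.109) against sham. Leaving out 1 array put miR-211 in entrapment against sham between -1.88 and -0.98, past the threshold without entrapment replicate 3 (adjusted p = 0.0299). For miR-211, entrapment against denervation was no longer called under median scaling (-0.61, adjusted p = 0.105), quantile normalization (-0.59, adjusted p = 0.175), the percentile over the other set of miRNAs (-1.23, adjusted p = 0.0545), no detection filter (-1.25, adjusted p = 0.103) and a fit of both groups only (-1.25, adjusted p = 0.0747), and ranged from -1.65 to -0.75 when 1 array was left out. It remained called only without entrapment replicate 3 (adjusted p = 0.0114) among those 9 fits.

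In soleus, miR-204 against sham was -2.72, -2.22 and -2.13 for denervation, entrapment and decompression without scaling. Entrapment was -3.58 with quantile normalization, -3.04 with the percentile over all miRNAs and -3.17 with the processed values or with the processed sham value alone, a setting chosen after seeing the data. Decompression was -2.69 with the percentile over all miRNAs. Between tissues, the miR-204 log2 difference in sham was 2.79 without scaling and 2.23 with the processed sham value. In entrapment it was 4.67 without scaling, 5.07 with median scaling, 4.75 with quantile normalization and 4.39 with the other percentile set. In decompression the same settings gave 4.43, 4.42, 4.15 and 3.87. The number of miRNAs at least 2-fold below sham fell without scaling in soleus from 32, 47 and 47 to 4, 13 and 20. In soleus it was 23 and 28 for entrapment and decompression with quantile normalization and 21 and 21 with the other percentile set. In DRGs the count of 2, 24 and 30 for denervation, entrapment and decompression became 1, 11 and 10 with median scaling. It was 11 and 11 for entrapment and decompression with quantile normalization, and 46 for decompression without scaling. The cause was not tested.

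Between groups, arrays of the same replicate number correlated at -0.12 to 0.48 in DRGs and -0.47 to 0.21 in soleus. Unlike replicate numbers were not set beside them, so whether the numbers pair the samples was not settled. With the replicate block, miR-211 in DRGs gave adjusted p = 0.0452 for entrapment against denervation and 0.00471 for decompression against denervation, and no call changed. A filter on detection on all 10 DRG arrays leaves out miR-211, and miR-211 in soleus was not fitted, being detected on fewer than 3 arrays. Low signal over background limits miR-211 in both tissues.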

Other observations

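The strand opposite miR-204 in its hairpin, read by the probe miR-204*, was detected on 0 of 10 soleus arrays and 3 of 10 DRG arrays. Its DRG signals were 3.07 in sham, 3.85 in denervation replicate 1 and 3.53 in denervation replicate 3. The entrapment and decompression signals lay between -3.72 and 0.32.

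In soleus, miR-329 and miR-139-3p also lay below sham on the injury arrays. For miR-329 the log2 differences were -3.21 ± 0.62 (SD, n = 3) after denervation, -4.08 ± 0.33 after entrapment and -3.84 ± 0.99 after decompression, with detection on 2 of 3 entrapment and 1 of 3 decompression arrays. For miR-139-3p they were -3.01 ± 1.38 after denervation and -5.14 ± 1.86 after entrapment, with detection on 1 of 3 entrapment arrays, and it was not detected after decompression. Counting differences over 1% where either source exceeds 20, their scanner and processed signals differed in 7 values, and in 6 of these the difference lay within 0.01 of a multiple of 10, a feature chosen after the values were seen. For miR-139-3p in sham, the scanner signal was 156.929 against 456.929 in the processed table. For miR-329 in sham it was 54.7 against 146.6, which is not such a multiple. The cause was not tested.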
